A study of Arabidopsis thaliana with 4 samples.

Results

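The 10 plastid genes ndhA, ndhC, ndhD, ndhE, ndhF, ndhG, ndhH, ndhI, ndhJ and ndhK encode subunits of the chloroplast NADH dehydrogenase-like (NDH) complex. They were taken as the probe sets that carry a single gene of the plastid genome with 1 of these symbols, and all 10 genes had such a probe set among the 22746 on the array. No filter on signal was applied, so all 10 entered the test. The probe set of ndhB lists 2 gene copies and was not used here. Affymetrix arrays measured transcripts of Arabidopsis thaliana shoots, that is, the aerial parts of seedlings harvested at 2 weeks after germination. There were 2 arrays of aln-1, which carries a mutant allele of ALN and shares the background of the wild type, and 2 arrays of that wild type, Col-0, each array from its own biological replicate. Both genotypes grew on solid medium with sucrose under long days, and the labels name no treatment beyond the genotype. ALN encodes allantoinase, which hydrolyses allantoin, and its loss lets allantoin build up. The question asked of the ndh genes is whether their transcripts differ between aln-1 and Col-0, operon by operon.

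The NDH complex sits in the thylakoid membrane, takes electrons from ferredoxin and passes them to plastoquinone, and so carries part of the cyclic electron flow around photosystem I. It is an L-shaped relative of respiratory complex I. The membrane arm holds the plastid-encoded subunits NdhA to NdhG, and the peripheral arm on the stromal side holds NdhH, NdhI, NdhJ and NdhK. Nuclear genes supply the remaining subunits, the assembly factors and the pentatricopeptide repeat proteins that edit or process ndh transcripts. In the plastid genome ndhC, ndhK and ndhJ form one operon. A second runs from ndhH through ndhA, ndhI, ndhG and ndhE to psaC and ndhD, where psaC encodes a photosystem I subunit. ndhF is transcribed on its own.

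Each deposited value is a log2 signal set against the median of the same probe set on all 4 arrays. A value of 0.5 therefore means above the probe set's median and says nothing about how abundant the transcript is, so levels cannot be ordered between genes. Differences are aln-1 minus Col-0 on this scale with the moderated standard error (SE) of limma, n = 2 arrays per genotype. The array medians over all probe sets lay between -0.04 and -0.02 in aln-1 and between 0.02 and 0.04 in Col-0. Values on aln-1 replicate 2 were the most widely spread, with quartiles at -0.34 and 0.22. On the other arrays the lower quartile was -0.19 and the upper quartile 0.18 to 0.26. ALN itself was at -1.59 and -1.72 in aln-1 and at 1.59 and 2.03 in Col-0, a difference of -3.46 (SE 0.22, limma adjusted p = 0.0580). With 2 arrays against 2, an exact two-sided permutation test cannot go below p = 0.33, so none is printed.

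The ndh transcripts showed small and mixed differences. With limma 0 of 10 passed an adjusted p of 0.05, where 0.255% of all probe sets passed. That share rests on 58 calls, and limma made 0 calls over all probe sets with any 1 array left out, with the replicate block, with quantile normalization or with a robust prior, against 906 with priors within brightness classes. At an unadjusted limma p under 0.05 there were 2 of 10, ndhD and ndhH, both lower in aln-1, where 23.4% of all probe sets reached that level and 12.3% reached it as lower. Without either Col-0 array this count of 2 was 0. Differences ranged from -0.80 to 0.49, with 7 genes below 0 and 3 above, and their median was -0.12. Of all 22746 probe sets 55.8% were below 0 and 44% above, with a median of -0.08. Both aln-1 arrays lay below both Col-0 arrays for 3 genes, ndhD, ndhH and ndhA, where this holds for 34.9% of all probe sets. They lay above for 1 gene, ndhK, where this holds for 25.2% of all probe sets. Together 4 of 10 had genotypes that did not overlap, where 60.1% of all probe sets did, so these shares are near or below those of the whole array. None of the 10 was 2-fold apart in every pair of an aln-1 and a Col-0 array, where 8.21% of all probe sets were. In whole shoots, fewer chloroplast-rich cells and less transcript per cell cannot be told apart.

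**Figure D1:**
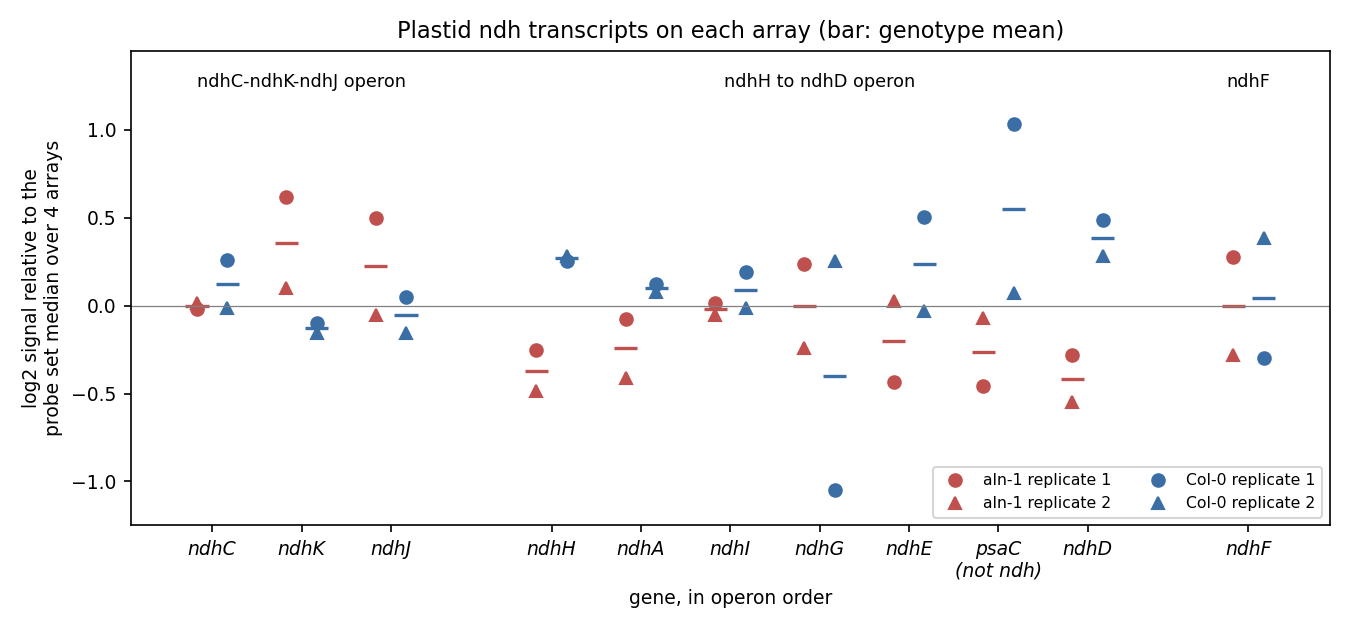
Log2 signal relative to the probe set median (vertical axis) for the 10 ndh genes and psaC in operon order, with aln-1 arrays in red left of Col-0 arrays in blue, circles for replicate 1, triangles for replicate 2 and bars for genotype means. The aln-1 arrays lie below the Col-0 arrays for ndhH, ndhA, psaC and ndhD and above them for ndhK, and the single lowest point is Col-0 replicate 1 of ndhG at -1.05.

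The ndhC-ndhK-ndhJ operon carried the gene with the highest difference of the 10. ndhK encodes a peripheral arm subunit with an iron-sulphur cluster. It was at 0.62 and 0.10 in aln-1, against -0.10 and -0.16 in Col-0. Its difference was 0.49 (SE 0.24, 95% interval -0.23 to 1.2, limma adjusted p = 0.320). The genotypes did not overlap, but the aln-1 arrays were further apart from each other than the lower of them was from Col-0. Dropping aln-1 replicate 1 gave a difference of 0.23, and dropping aln-1 replicate 2 gave 0.74. ndhJ encodes another peripheral arm subunit and was at 0.50 and -0.05 in aln-1, against 0.05 and -0.15 in Col-0. Here aln-1 replicate 1 was high and aln-1 replicate 2 lay among the Col-0 arrays, for a difference of 0.28 (SE 0.26). ndhC encodes a small membrane arm subunit. It was at -0.02 and 0.01 in aln-1, against 0.26 and -0.01 in Col-0, a difference of -0.13 (SE 0.17) that comes from the single higher array, Col-0 replicate 1. The median difference of the 3 genes was 0.28. Leaving out aln-1 replicate 1 brought it to -0.0012, and leaving out aln-1 replicate 2 to 0.55.

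Among the 6 ndh genes of the operon from ndhH to ndhD, those at either end had the lowest differences. ndhH, the first gene, encodes a peripheral arm subunit related to the catalytic core of complex I. It was at -0.26 and -0.49 in aln-1, against 0.26 and 0.28 in Col-0. Its difference was -0.64 (SE 0.16, 95% interval -1.11 to -0.17), with an unadjusted limma p of 0.0215 and an adjusted p of 0.158. ndhD, the last gene, encodes a proton-pumping type subunit of the membrane arm, and in Arabidopsis its start codon is made by RNA editing. It was at -0.28 and -0.55 in aln-1, against 0.49 and 0.28 in Col-0. Its difference was -0.80 (SE 0.18, 95% interval -1.35 to -0.25), with an unadjusted limma p of 0.0173 and an adjusted p of 0.148. For these genes alone among the 10 the interval left out 0, and neither passed after adjustment.

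The genes between them had smaller or less certain differences. ndhA, whose membrane arm subunit lies where the arms meet, was at -0.08 and -0.41 in aln-1, against 0.12 and 0.08 in Col-0, a difference of -0.34 (SE 0.18). It did not overlap, and it was -0.17 without aln-1 replicate 2. ndhI encodes a peripheral arm subunit that binds iron-sulphur clusters. It was at 0.01 and -0.06 in aln-1, against 0.19 and -0.01 in Col-0, a difference of -0.11 (SE 0.15) with overlapping arrays.

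ndhG, a membrane arm gene, had the widest spread of the 10. It was at 0.24 and -0.24 in aln-1, against -1.05 and 0.25 in Col-0. Its difference of 0.40 (SE 0.55, 95% interval -1.26 to 2.06) rests on Col-0 replicate 1, and it was -0.25 without that array. ndhE encodes the smallest membrane arm subunit of this operon and was at -0.43 and 0.03 in aln-1, against 0.50 and -0.03 in Col-0. Its difference was -0.44 (SE 0.30), and -0.17 without Col-0 replicate 1 or -0.21 without aln-1 replicate 1.

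psaC, which lies between ndhE and ndhD, was at -0.45 and -0.07 in aln-1, against 1.03 and 0.07 in Col-0. Its difference was -0.82 (SE 0.42, limma adjusted p = 0.336). Without Col-0 replicate 1 it was -0.34. The ribosomal protein gene rps15, the neighbour of ndhH outside the operon genes listed above, was named after its values were seen. It was at -0.23 and -0.43 in aln-1, against 0.94 and 0.23 in Col-0, a difference of -0.92 (SE 0.31, limma adjusted p = 0.218).

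Over the 6 ndh genes of this operon the median difference was -0.39, with 5 below 0 and 1, ndhG, above. The genes share transcripts and are not replicates of each other. Their differences nevertheless spread from -0.80 to 0.40, with SEs of 0.15 to 0.55. These SEs are for single genes. Whether neighbours along the operon differ from each other on the same arrays was not tested.

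**Figure D2:**
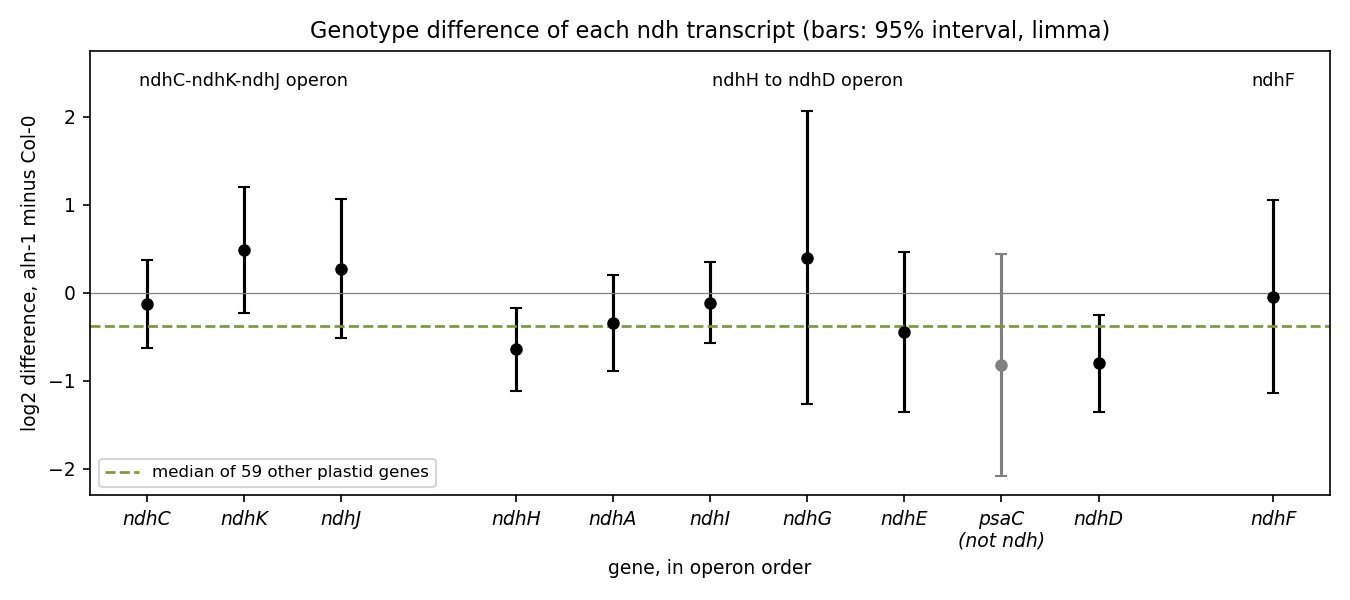
Log2 difference aln-1 minus Col-0 (vertical axis) for each gene in operon order, with points for the estimate and bars for the 95% interval of limma; psaC is grey, and the dashed line is the median of 59 other plastid genes at -0.37. Intervals leave out 0 for ndhH and ndhD, and the interval of ndhG is the widest.

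ndhF encodes the subunit at the far end of the membrane arm, related to proton-pumping antiporters. It was at 0.28 and -0.28 in aln-1, against -0.30 and 0.38 in Col-0. Both aln-1 arrays lay between the Col-0 arrays, and the difference was -0.04 (SE 0.36, 95% interval -1.14 to 1.05, limma adjusted p = 0.956). That interval allows more than a 2-fold change in either direction.

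The operons were also set against each other on each array. The median of ndhC, ndhK and ndhJ minus the median of the 6 ndh genes from ndhH to ndhD was 0.67 and 0.34 in aln-1, against -0.17 and -0.32 in Col-0. Its mean was 0.50 ± 0.23 in aln-1 and -0.25 ± 0.10 in Col-0 (SD, n = 2 each), a difference of 0.75 that was larger than the spread between arrays of a genotype. Since each probe set is centred on its own median over the arrays, the sign of the value on a single array has no meaning, and only the difference between genotypes does. Any shift common to all plastid transcripts on an array drops out of this value. The difference ranged from 0.58 to 0.91 with each array left out in turn. With means over the genes, the operon differences were 0.21 (ndhC to ndhJ) and -0.32 (ndhH to ndhD). A gap of means is therefore smaller than 0.75. No p is given, since the value is a score over chosen genes.

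**Figure D3:**
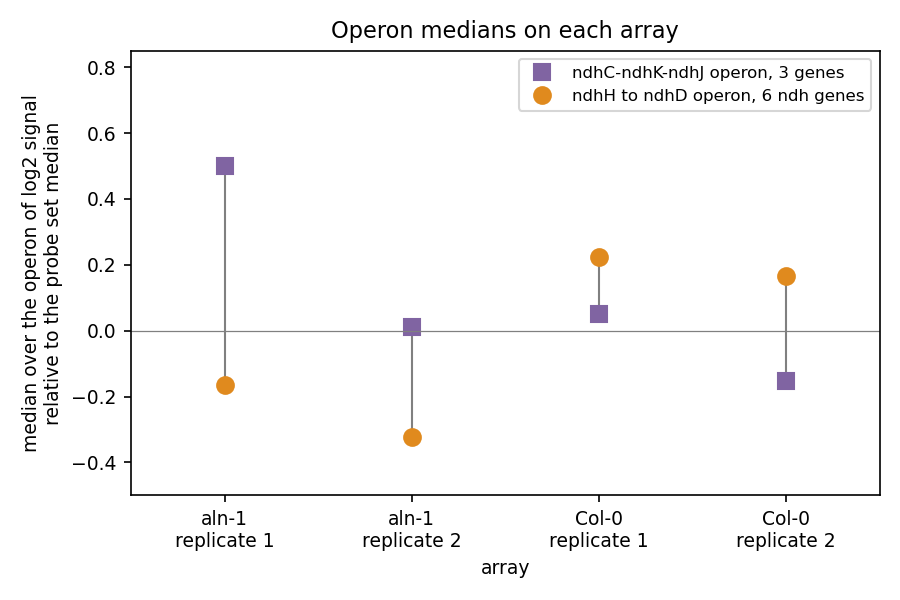
Median log2 signal relative to the probe set median (vertical axis) of the ndhC-ndhK-ndhJ operon (squares, 3 genes) and of the ndh genes from ndhH to ndhD (circles, 6 genes) on each of the 4 arrays, aln-1 left of Col-0. Square minus circle is 0.67 and 0.34 on the aln-1 arrays and -0.17 and -0.32 on the Col-0 arrays, a genotype difference of 0.75; which symbol is on top on a single array has no meaning, since each probe set is centred on its own median.

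By place in the complex, the 6 membrane arm genes had a median difference of -0.24, with 5 below 0 and 1 above. The 4 peripheral arm genes had a median of 0.08, with ndhK and ndhJ above 0 and ndhH and ndhI below. Of all probe sets 55.8% were below 0. ndhK and ndhJ share an operon, as do ndhH and ndhI, so the arms are not a comparison independent of the operons.

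The other plastid genes were mostly lower in aln-1. Of 59 with a single-gene probe set, 49 had a difference below 0, where 55.8% of all probe sets did. The median of the 59 was -0.37, against -0.12 for the ndh genes. The limma test called 1 of the 59 (1.69%), where 0.255% of all probe sets were called. The called gene was rpoB, which encodes a subunit of the plastid-encoded RNA polymerase, at -3.35 with a limma adjusted p of 0.0471. Its difference stayed between -3.46 and -3.05 in 10 alternatives, but 7 of them lost the call: quantile normalization, the replicate block (limma adjusted p = 0.190), each array left out and the robust prior. Median differences were -0.16 for 20 photosystem genes, -0.38 for 6 cytochrome b6f genes and -0.34 for 6 ATP synthase genes. They were -0.33 for 15 ribosomal protein genes, -0.53 for 4 RNA polymerase genes, rpoB among them, and -0.43 for 8 others. Among all 69 plastid genes ndhK ranked 4th from the top and ndhD 59th. Both aln-1 arrays lay below both Col-0 arrays for 36 of the 59 (61%) and for 3 of the 10 ndh genes. Over all probe sets this share was 34.9%. The 20 photosystem genes were mixed too, with 12 below 0, 8 above 0 and 9 with both aln-1 arrays lower. Whether the ndh genes differ from the rest of the plastid genes was not tested. When each array was centred on these 59 genes, the median of the ndh genes was 0.18, that of the ndhC-ndhK-ndhJ operon 0.57 and that of the ndhH to ndhD operon -0.09.

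**Figure D4:**
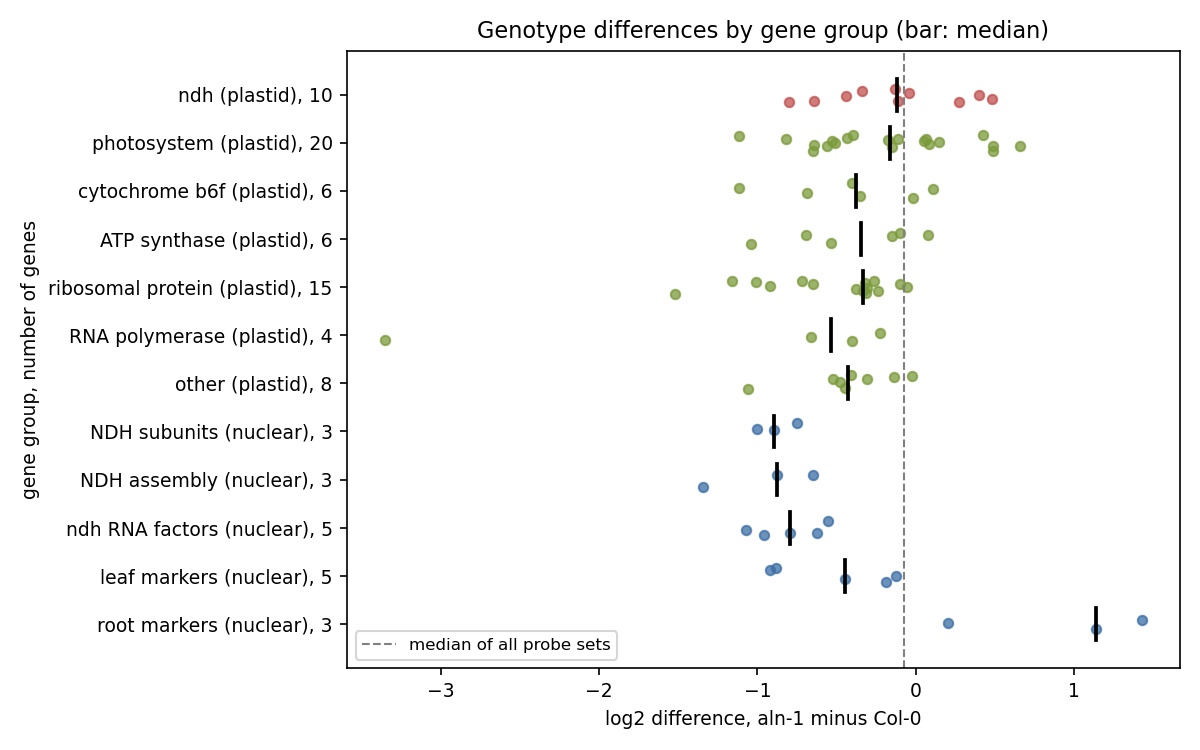
Log2 difference aln-1 minus Col-0 (horizontal axis) of single genes (points) and their median (bars) for the plastid ndh genes, 6 other groups of plastid genes and 5 nuclear lists, with the median of all probe sets dashed at -0.08. All 11 nuclear NDH genes are below 0, the ndh genes lie on both sides, and the root markers are above 0.

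Nuclear genes that serve the same complex were lower in aln-1 in each of the 11 measured cases. Of 35 listed, 11 had a named single-gene probe set and are called measured, with differences from -1.34 to -0.55 and a median of -0.87. Others may be among the 8730 probe sets unnamed here or the 503 with several genes. In all 11, both aln-1 arrays lay below both Col-0 arrays, where 34.9% of all probe sets do. At an unadjusted limma p under 0.05 there were 8 of 11, all lower, where 12.3% of all probe sets were. After adjustment 0 of 11 passed, with limma adjusted p from 0.127 to 0.372, where 0.255% of all probe sets passed. The members of this list were chosen with earlier results of these data known, so the counts are a description. With each array left out the median stayed between -1.02 and -0.72.

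Of 19 nuclear subunit genes 3 were measured. NDHL, a membrane-spanning subunit, was at -0.38 and -0.78 in aln-1, against 0.46 and 0.38 in Col-0, a difference of -1.0 (SE 0.20). NDHN, a peripheral arm subunit, differed by -0.90 (SE 0.21), and NDHS, which forms the ferredoxin binding site, by -0.75 (SE 0.26). Of 8 assembly genes 3 were measured. CRR27 (Cpn60beta4), a chaperonin subunit needed to fold NdhH, was at -0.28 and -0.82 in aln-1, against 0.36 and 0.28 in Col-0, a difference of -0.87 (SE 0.24). CRR41 and CRR42, which act in assembly of the peripheral arm, differed by -0.65 (SE 0.25) and -1.34 (SE 0.41).

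Of 8 genes for ndh RNA editing or processing 5 were measured, all for pentatricopeptide repeat proteins. CRR21, which edits ndhD, was at -0.40 and -0.78 in aln-1, against 0.56 and 0.40 in Col-0, a difference of -1.07 (SE 0.20, limma adjusted p = 0.127). CRR22 and CRR28, which edit ndhD among other sites, differed by -0.96 (SE 0.23) and -0.62 (SE 0.16). OTP85, also an ndhD editing factor, differed by -0.55 (SE 0.32), and OTP84, which edits ndhF among other sites, by -0.79 (SE 0.19). The arrays measure transcript signal and not editing, so the edited share of ndhD or ndhF was not analysed here.

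The alternative route of cyclic electron flow depends on PGR5 and its partners. Of its 3 listed genes only PGRL1B was measured, at 0.02 and -0.02 in aln-1 and 0.05 and -0.07 in Col-0, a difference of 0.01 (SE 0.14, 95% interval -0.40 to 0.42). Of 8 genes for plastid transcription, among them the sigma factors, only RPOTMP, a phage-type RNA polymerase of organelles, was measured. It differed by -0.59 (SE 0.17, limma adjusted p = 0.184). SIG4, the sigma factor known to act on ndhF, had no named single-gene probe set here.

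Tissue markers were read on the same arrays. With limma 0 of 5 leaf and 0 of 3 root markers passed after adjustment, where 0.255% of all probe sets passed. An unadjusted limma p under 0.05 was reached by 2 leaf markers, both lower, and by 2 root markers, both higher. Over all probe sets 12.3% reached that level as lower and 11.1% as higher. All 5 measured of 25 nuclear leaf photosynthesis genes were below 0, where 55.8% of all probe sets were, the median being -0.45. The median over the 5 on each array was -0.13 and -0.33 in aln-1, against 0.30 and 0.13 in Col-0. SBPASE and PRK of the Calvin cycle were the lowest of them, at -0.92 (SE 0.22) and -0.88 (SE 0.24). All 3 measured of 6 root markers were higher, where 44% of all probe sets had a difference above 0. Their medians were 0.37 and 0.71 in aln-1, against -0.67 and -0.37 in Col-0. EXPA7, EXPA18 and PYK10 differed by 1.43, 1.14 and 0.20. Levels above background cannot be read from centred values, so how much root tissue any array held is not known. The part of tissue make-up in the values of the ndh genes or of the nuclear NDH genes was not tested.

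The 5 single-gene probe sets nearest to the mean profile of the 10 ndh genes, by Euclidean distance over the 4 arrays, were all nuclear. They were AT1G72740, ZAP1, AT3G13160, AT2G25100 and AT1G66080, at distances of 0.072 to 0.077. The mean profile was 0.06 and -0.19 in aln-1 and 0.04 and 0.09 in Col-0. The ndh genes themselves lay 0.23 (ndhI) to 1.12 (ndhG) from it. The 5 nuclear genes are close because they were picked as the nearest of 13426.

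The labelled cRNA was made with a kit that primes from poly(A) tails. Plastid mRNAs mostly lack stable tails, so the signal of the ndh probe sets depends on how plastid RNA was primed as well as on its amount.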

How the data were processed

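Per the submitters' processing notes the signals of the Affymetrix arrays were made with MAS5; its version and scaling target are not stated there. The deposited values are log2 signals centred per probe set: the middle pair of each row's 4 values adds up to 0 within 2e-06 in all 22746 rows. The log base is not stated and was taken as 2. Signal levels, background and detection calls were not used here, so no filter or pseudocount was applied, and the number of arrays limits the precision.

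Values were tested as deposited with limma 3.58.1 in R 4.3.3 (lmFit on genotype, eBayes, two-sided), with Benjamini-Hochberg adjustment over all probe sets at 0.05. The fit was checked on simulated data only for returning the mean size of planted changes, which does not test its calls. Gene names came from the array annotation, matched by gene identifier to RefSeq genes of TAIR10.1, used for names and neighbours only. Of 13513 probe sets with 1 gene 13436 matched, 503 had several genes and 8730 are unnamed here. Operon medians were described without a test.

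The ndh genes, the nuclear lists and the tests were chosen with earlier results of these data known. Named genes are the 10 members, psaC, ALN, every listed nuclear gene with a probe set of its own, tissue markers and the 5 nearest profiles; rpoB and rps15 were added after their values were seen. Alternatives were array centring, quantile normalization, centring on the other plastid genes, a replicate block, other variance priors, thresholds and each array left out. The brightness class was read from the rounding step of the values, with nominal bounds at signals of 256 and 16. It put 8 of the 10 ndh genes in the bright class and ndhH and ndhF in the middle class. Same-numbered arrays did not deviate together (correlation 0.0209 over probe sets), so the numbers were not taken as pairs. No sequence of these genes was used here.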

Additional observations from a re-analysis of the deposited data

How the results depend on the processing

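The limma count of ndh genes was 0 of 10 in all 12 alternatives, but in 8 of these limma called 0 of all probe sets, so only 4 could have shown a call: 82 calls over all probe sets with array medians centred, 122 centred on the other plastid genes, 906 with priors within brightness classes and 1078 at a threshold of 0.1, against 58 as reported. The lowest adjusted p among the 10 went from 0.0689 (variance priors within brightness classes) to 0.435 (without Col-0 replicate 1); with the replicate block it was 0.221, with a median difference of -0.12, and all 58 calls, rpoB among them, were lost. In the 7 alternatives that move the estimates, 61 of 70 pairs of an ndh gene and an alternative kept their direction and 9 turned. Centred on the other plastid genes, ndhC was at 0.17, ndhI at 0.19 and ndhF at 0.26, the median of the 10 at 0.18 and the operon medians at 0.57 (ndhC to ndhJ) and -0.093 (ndhH to ndhD); this centring raises the median of all probe sets by 0.30 by construction, and the 11 nuclear NDH genes then had a median of -0.57, with 8 of 11 below on both arrays. Centred on array medians, ndhF was at 0.014. With each array left out in turn, the median of the 10 was -0.24 to -0.11, the ndhC-ndhK-ndhJ operon -0.0012 to 0.55, the ndhH to ndhD operon -0.50 to -0.29, ndhF -0.38 to 0.30, ndhC -0.27 to 0.0085, ndhJ -0.0012 to 0.55 and ndhG -0.25 to 1.05. With no size limit 4 of 10 genes were apart in every array pair, since any gap then counts. The operon gap kept its sign in every alternative run (0.58 to 0.91). Array centring and the replicate block cannot change this gap, which was 0.75 in both. With means over the members, the operon differences were 0.21 (ndhC to ndhJ) and -0.32 (ndhH to ndhD). A gap of these means lies below 0.75 and below the range of 0.58 to 0.91, so its size depends on the use of medians. Alternatives on rpoB and the nuclear genes were chosen after seeing the data. What caused these shifts was not tested.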
